A study of Mus musculus with 12 samples.

Results

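Oligodendrocyte progenitor cells (OPCs) and the cells they become on the way to myelination are recognised in RNA by a small set of genes, and 10 of these are described here: Pdgfra, Cspg4, Ptprz1, Lhfpl3 and C1ql1 for progenitors, Gpr17, Neu4 and Tnr for committed precursors, and Bcas1 and Enpp6 for premyelinating cells. They were named by mouse symbol and found by the Ensembl identifier of each symbol among the 54838 genes counted. All 10 were counted in every library, with the lowest count, 30, for C1ql1, and all 10 were among the 31109 genes that passed the filter on low counts. RNA came from the spinal cord of P60 mice in 12 libraries, 3 in each of 4 groups: control (Olig1+/+;Tet1fl/fl by the series design, although the samples themselves are labelled wildtype) and Tet1 mutant (Olig1cre/+;Tet1fl/fl), each unlesioned or 4 days after an injection of lysolecithin (LPC), a lipid that strips myelin at the injection site (4dpl). The floxed Tet1 allele was thus present in both genotypes and cre, expressed from the Olig1 locus, in the mutant alone. Cre acts in cells with a history of Olig1 expression, whereas the RNA came from all cells left after papain dissociation and a Percoll gradient, which enriches for glia without sorting them. Unlesioned tissue was the opposite side of the cord, and neither the labels nor the methods say which libraries came from one mouse, so the p-values measure the spread between these libraries.

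After demyelination, adult OPCs divide, move into the lesion and differentiate through a committed and a premyelinating stage before they wrap axons. PDGFRA, the receptor for PDGF-AA, and the proteoglycan NG2, encoded by Cspg4, mark the dividing progenitor, the orphan receptor GPR17 appears as the cell commits and must be lost again for maturation, and BCAS1 and ENPP6 mark the newly formed oligodendrocyte that is about to myelinate or has just begun. TET1 oxidises methylated cytosine, most of which in mammals sits in CpG dinucleotides. These markers are not exclusive to the lineage: Pdgfra is also expressed by fibroblasts and Cspg4 by pericytes, and Ptprz1 and Tnr are found in astrocytes or neurons as well.

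Total counts per library were between 34805086 and 67251544. The unlesioned libraries had a count for 40023 to 44516 genes and the 4dpl libraries for 33964 to 37516 genes. Tet1 itself, counted over the whole gene although the deletion removes a single exon, was at 14.9 to 18.3 CPM (counts scaled by TMM library sizes) in control unlesioned and at 9.94 to 16.4 CPM in mutant unlesioned libraries. At 4dpl Tet1 was at 11.7 to 12.5 CPM in control and at 10.9 to 21.5 CPM in mutant libraries. The gene-level count therefore does not check the genotype labels, and "mutant" below means the libraries labelled so.

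On GRCm38, the progenitor genes lie on chromosome 5 from 75152292 to 75198215 (Pdgfra) and from 22746059 to 23275597 (Lhfpl3), on chromosome 9 from 56865033 to 56899870 (Cspg4), on chromosome 6 from 22875502 to 23052916 (Ptprz1) and on chromosome 11 from 102939264 to 102946688 (C1ql1). Of the committed genes, Neu4 and Tnr lie on chromosome 1, from 94020451 to 94028334 and from 159523769 to 159931729. Bcas1 lies on chromosome 2 from 170346991 to 170427845 and Enpp6 on chromosome 8 from 46986887 to 47096762.

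Promoter sequence of Pdgfra, Cspg4 and Lhfpl3 is shown because these 3 progenitor genes rose together after lesion in control and because TET1 acts on methylated CpG. RefSeq promoters of GRCm38.p6, 300 bases around each gene start, were matched for 7 of the 10 genes. The stretches printed below end where the first annotated transcript begins, with every CG in capitals. The Pdgfra stretch is chr5:75152001-75152250, the Cspg4 stretch chr9:56864854-56865032 and the Lhfpl3 stretch chr5:22745804-22746053, each on the plus strand.
Pdgfra: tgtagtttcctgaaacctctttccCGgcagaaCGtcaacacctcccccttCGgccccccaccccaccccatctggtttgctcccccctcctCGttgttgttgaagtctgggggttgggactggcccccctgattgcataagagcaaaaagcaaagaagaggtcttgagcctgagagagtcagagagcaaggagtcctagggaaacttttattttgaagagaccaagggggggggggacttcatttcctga
Cspg4: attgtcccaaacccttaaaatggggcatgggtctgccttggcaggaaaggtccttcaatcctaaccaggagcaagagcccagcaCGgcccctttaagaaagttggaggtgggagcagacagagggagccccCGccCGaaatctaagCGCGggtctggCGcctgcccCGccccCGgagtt
Lhfpl3: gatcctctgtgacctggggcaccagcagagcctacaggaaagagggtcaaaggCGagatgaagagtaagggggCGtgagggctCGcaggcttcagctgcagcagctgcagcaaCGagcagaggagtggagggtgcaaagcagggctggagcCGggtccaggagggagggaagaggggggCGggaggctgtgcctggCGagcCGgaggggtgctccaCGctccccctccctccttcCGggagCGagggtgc
The printed stretches hold 4 CG in Pdgfra, 8 in Cspg4 and 11 in Lhfpl3. Over the whole 300 bases, CG was present 5 times in Pdgfra, 17 times in Cspg4 and 12 times in Lhfpl3, against a median of 7 over 32851 promoters of this length. At least as many CG were found in 62.0% of promoters for Pdgfra, 31.4% for Cspg4 and 39.6% for Lhfpl3. Of the other matched genes, Ptprz1 had 29 CG (as many in 12.9% of promoters), Neu4 6, Enpp6 4 and Tnr 3, so the progenitor genes spanned both sparse and dense promoters. No methylation was measured in these libraries, and the letters are given as description.

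Per length of exon, the premyelinating genes were the most abundant of the set. Bcas1, a cytosolic protein of newly formed oligodendrocytes, was at 30.0 ± 2.69 RPKM, reads scaled to exon length and library size (SD, n = 3), in control unlesioned libraries. Enpp6, a choline-specific phosphodiesterase, followed at 11.3 ± 1.66 RPKM (SD, n = 3), and Gpr17 at 2.33 ± 0.885 RPKM (SD, n = 3). The libraries of Bcas1, Enpp6 and Gpr17 did not overlap one another there. From Gpr17 down to Pdgfra, at 0.976 ± 0.146 RPKM (SD, n = 3), each gene overlapped its neighbour in the order Gpr17, Neu4, C1ql1, Lhfpl3, Cspg4, Ptprz1 and Pdgfra, and Tnr lay below them all at 0.527 ± 0.0602 RPKM (SD, n = 3). Bcas1, Enpp6 and Gpr17 kept the top places in that order in each of the 4 groups, although Enpp6 and Gpr17 overlapped in control 4dpl and in mutant unlesioned libraries. The lowest mean belonged to Tnr in 3 groups and to C1ql1 in control 4dpl.

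**Figure D1:**
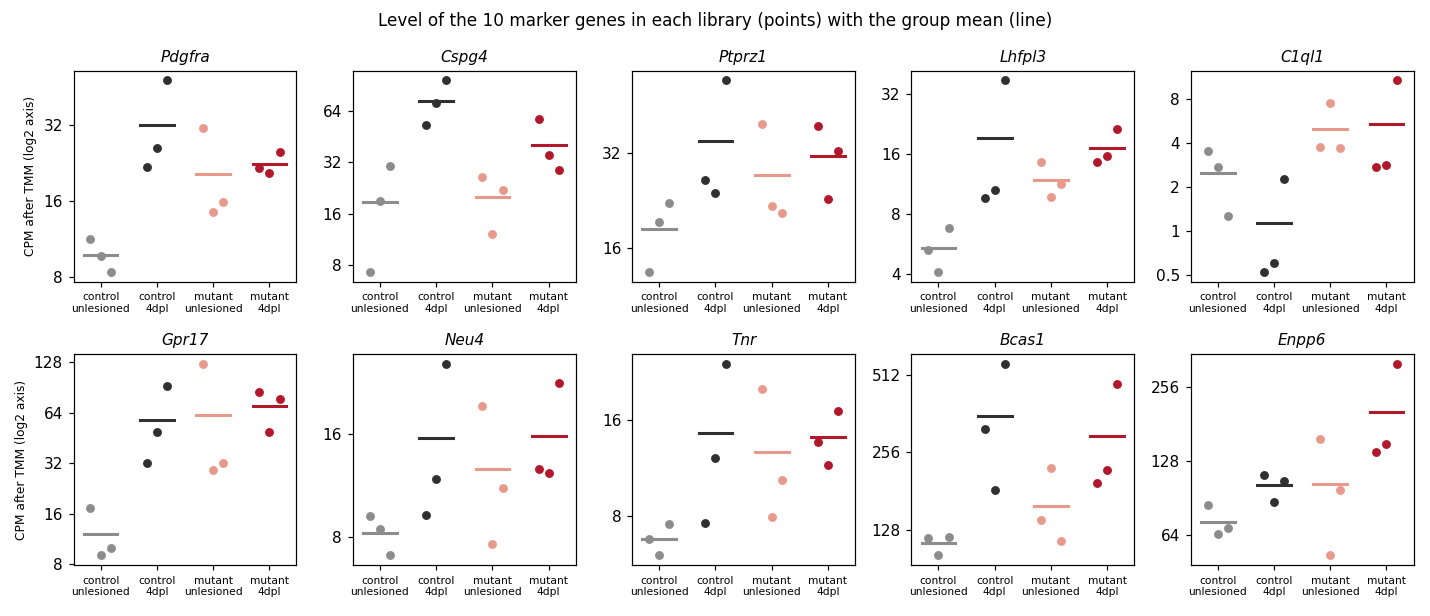
Level of each of the 10 genes in CPM after TMM normalization on a log2 axis, with a point for each of the 12 libraries, in replicate order within a group, and a line at the group mean. In 9 genes all 3 control 4dpl libraries lie above all 3 control unlesioned libraries, and C1ql1 is the exception.

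In control mice, the progenitor genes Pdgfra, Cspg4 and Lhfpl3, the committed gene Gpr17 and the premyelinating gene Bcas1 were higher at 4dpl, by 3.14-fold to 4.80-fold. They passed a p-value of 0.01 together with a Benjamini-Hochberg adjusted p-value of 0.05 (edgeR quasi-likelihood test), the rule for a called gene throughout. That is 5 of 10 members called higher and 0 lower, where 5.12% of all genes tested were called higher and 5.01% lower. The median log2 difference of the 10 was 1.38, whereas it was -0.36 over all genes tested. It was 0.33 over the 13616 genes with a mean log2 CPM of at least 1, which include all 10 members and are called the expressed genes below, and 11.5% of these were called higher. A change in the number of cells of a type and a change in RNA per cell cannot be told apart in these bulk libraries, here and below.

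Among the progenitor genes, Pdgfra was at 11.3, 9.67 and 8.38 CPM in control unlesioned replicates 1, 2 and 3 and at 21.7, 26.0 and 47.9 CPM at 4dpl. The groups were well apart, and replicate 3 was the highest of the lesioned libraries (log2 difference 1.70 ± 0.34 (SE), edgeR adjusted p = 0.0256). Cspg4 went from 7.25, 19.0 and 30.3 CPM to 53.3, 71.3 and 97.2 CPM. The unlesioned libraries of Cspg4 spread more than those of Pdgfra, but all lay below the lesioned ones (log2 difference 1.97 ± 0.45 (SE), edgeR adjusted p = 0.0303). Lhfpl3, a tetraspan membrane protein enriched in OPCs, was at 5.32, 4.10 and 6.82 CPM unlesioned and at 9.58, 10.6 and 37.3 CPM at 4dpl. Replicate 3 was far above the other lesioned libraries of Lhfpl3 (log2 difference 1.82 ± 0.45 (SE), edgeR adjusted p = 0.0347). Ptprz1, a receptor-type phosphatase that binds pleiotrophin, was at 13.4, 19.2 and 22.2 CPM unlesioned and at 26.3, 23.9 and 54.2 CPM at 4dpl. Its groups did not overlap, yet the difference was not called (0.93 ± 0.36 (SE), edgeR adjusted p = 0.0912). C1ql1, a secreted complement-related protein, was the one member with a lower mean at 4dpl, at 3.53, 2.72 and 1.27 CPM unlesioned and 0.524, 0.607 and 2.26 CPM after lesion. Its groups overlapped and the log2 difference of -1.16 ± 0.66 (SE) was not called (edgeR adjusted p = 0.22).

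Markers of other cells that express Pdgfra or Cspg4 were counted in these same libraries. The summed level of 7 fibroblast genes was 23.2 to 46.0 CPM in control unlesioned and 95.7 to 204 CPM in control 4dpl libraries, and of these Col1a1, Col1a2 and Col3a1 were called higher and Slc6a13 lower. The summed level of 8 endothelial and pericyte genes was 32.0 to 40.4 CPM unlesioned and 21.0 to 35.3 CPM at 4dpl, with 0 of 8 called by edgeR and 2 of 8 at an unadjusted p-value of 0.05. All 8 of their log2 differences were below 0, as were 60.9% of all genes tested, whereas 71.0% of expressed genes were above 0. An unadjusted p-value under 0.05 in edgeR was held by 10584 of the 31109 genes tested. In mutant libraries the fibroblast sum was 33.6 to 76.1 CPM unlesioned and 47.5 to 68.6 CPM at 4dpl, with 0 of 7 genes called by edgeR (2 at an unadjusted p-value of 0.05), and Col1a1, Col1a2 and Col3a1 were called higher and Dcn and Slc6a13 lower over both genotypes. The part of fibroblasts in the difference of Pdgfra and that of pericytes in the difference of Cspg4 were not tested.

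Of the committed genes, Gpr17 had the largest difference of the set, from 17.4, 9.01 and 9.97 CPM unlesioned to 32.3, 49.3 and 93.1 CPM at 4dpl. The lowest lesioned library was above the highest unlesioned one (log2 difference 2.26 ± 0.54 (SE), edgeR adjusted p = 0.0336). Neu4, a sialidase, was at 9.20, 8.46 and 7.07 CPM unlesioned and at 9.27, 11.8 and 25.7 CPM at 4dpl. Tnr, the extracellular matrix glycoprotein tenascin-R, was at 6.76, 6.01 and 7.56 CPM and at 7.61, 12.1 and 24.0 CPM. In both genes replicate 1 at 4dpl sat just above the unlesioned libraries and replicate 3 far above them, and neither difference was called (Neu4 0.92 ± 0.41 (SE), edgeR adjusted p = 0.133). The log2 difference of Tnr was 1.10 ± 0.40 (SE), with an edgeR adjusted p of 0.0821.

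Of the premyelinating genes, Bcas1 was called and Enpp6 was not. Bcas1 was at 118, 102 and 120 CPM in control unlesioned libraries and at 316, 183 and 566 CPM at 4dpl, the lesioned libraries being spread but all higher (log2 difference 1.65 ± 0.42 (SE), edgeR adjusted p = 0.037). Enpp6 was at 84.5, 64.5 and 68.1 CPM and at 112, 87.4 and 106 CPM, which did not overlap but lay close together (0.49 ± 0.38 (SE), edgeR adjusted p = 0.355).

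Without overlap, 9 of 10 members were higher in control 4dpl libraries, as were 16.5% of all genes tested and 35.2% of expressed genes. Control 4dpl replicate 3 was the highest of its group in 9 of 10 members, all but Enpp6, and in 36.5% of all genes tested. Its sums were also the highest for astrocyte genes (607 against 469 and 328 CPM) and microglia and macrophage genes (12928 against 8431 and 11504 CPM). So was its sum of mature oligodendrocyte genes (32523 against 26482 and 21289 CPM). Its fibroblast, endothelial and pericyte, Schwann cell and cycling cell sums were not the highest. The part of these sums in the result was not tested. Every log2 difference of the 5 called genes lay between 0.96 and 2.64 with any library left out. The lowest was 0.40 for Neu4, 0.59 for Tnr and 0.50 for Ptprz1. The median of the 10 went from 1.38 to 0.78 without control 4dpl replicate 3 and to 1.59 without control 4dpl replicate 1. The count of members called was 0 without control unlesioned replicate 2, control 4dpl replicate 1 or control 4dpl replicate 2, where 0.003%, 0.0118% and 0.00589% of all genes were called, so that these counts were at the background and say nothing particular to the members. It was 1 without control unlesioned replicate 3 (Cspg4, with 0.351% of all genes called) or control 4dpl replicate 3 (Pdgfra, with 5.41%), and 3 without mutant unlesioned replicate 3 (2.7%). Pdgfra and Gpr17 were the 2 members called with scaling by total count (8.99% of all genes called), a filter of 10 counts in every library (7.39%), a fit to the 2 control groups alone (4.52%) and a block on the sample numbers of the study (9.61%).

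In mutant mice, 0 of the 10 genes were called after lesion by edgeR, and 3 (Cspg4, Bcas1 and Enpp6) had an unadjusted p-value under 0.05, against 33.8% of all genes tested. Genes called were few there in all, 0.0225% higher and 0.113% lower of all genes tested. The median log2 difference of the members was 0.26. With one library left out it ranged from 0.14 (without mutant unlesioned replicate 3) to 0.76 (without mutant unlesioned replicate 1). In the fit to all libraries the median was -0.18 over all genes tested and 0.47 over expressed genes. All 10 differences were above 0, as were 45.0% of all genes tested and 82.9% of expressed genes, but those of Pdgfra, Gpr17, Tnr, Neu4, C1ql1 and Ptprz1 turned below 0 with scaling by total count, and that of C1ql1 with RLE size factors.

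Pdgfra was at 31.1, 14.5 and 15.9 CPM in mutant unlesioned replicates 1, 2 and 3 and at 21.5, 20.6 and 25.1 CPM at 4dpl, so that the highest library was an unlesioned one (log2 difference 0.13 ± 0.33 (SE), edgeR adjusted p = 0.797). Gpr17 likewise had its highest library among the unlesioned ones, with 126, 29.0 and 32.0 CPM unlesioned and 84.9, 48.9 and 77.8 CPM at 4dpl. The first unlesioned library of Gpr17 was above every lesioned one, and replicates 2 and 3 were below every one (0.18 ± 0.52 (SE), edgeR adjusted p = 0.822). Cspg4 was at 26.2, 12.2 and 22.0 CPM and at 57.7, 35.2 and 28.7 CPM, without overlap (1.01 ± 0.44 (SE), edgeR adjusted p = 0.13). Lhfpl3 was the other gene without overlap, at 14.5, 9.75 and 11.3 CPM unlesioned and 14.6, 15.7 and 21.4 CPM at 4dpl, where the nearest libraries nearly touched (0.54 ± 0.43 (SE), edgeR adjusted p = 0.38). These 2 of 10 compare with 18.8% of all genes tested and 40.5% of expressed genes.

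Bcas1 was at 139, 222 and 115 CPM in mutant unlesioned libraries and at 194, 219 and 474 CPM at 4dpl, the overlap coming from unlesioned replicate 2 (log2 difference 0.90 ± 0.42 (SE), edgeR adjusted p = 0.147). Enpp6 was at 158, 52.6 and 97.4 CPM and at 140, 150 and 320 CPM, the overlap coming from unlesioned replicate 1. It had the smallest p-value of the set (0.99 ± 0.38 (SE), edgeR adjusted p = 0.0998). Without mutant unlesioned replicate 1, where 10.2% of all genes were called, Enpp6 was called, with a log2 difference of 1.47 and an edgeR adjusted p-value of 0.0391, and Gpr17 was at 1.24 with an edgeR adjusted p-value of 0.0686.

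The remaining members had log2 differences of 0.32 or less in mutant, and none was called. Tnr was at 19.9, 7.91 and 10.3 CPM in mutant unlesioned and 13.6, 11.5 and 17.1 CPM in mutant 4dpl libraries (log2 difference 0.15 ± 0.40 (SE)). Neu4 was at 19.3, 7.63 and 11.1 CPM and at 12.6, 12.3 and 22.6 CPM (0.32 ± 0.41 (SE)). In both genes unlesioned replicate 1 lay among or above the lesioned libraries. Ptprz1 was at 39.5, 21.7 and 20.6 CPM and at 38.7, 22.9 and 32.3 CPM (0.20 ± 0.35 (SE)). C1ql1 was at 3.76, 7.50 and 3.69 CPM and at 2.73, 2.85 and 10.7 CPM, its single highest library being a lesioned one (0.12 ± 0.64 (SE)).

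**Figure D2:**
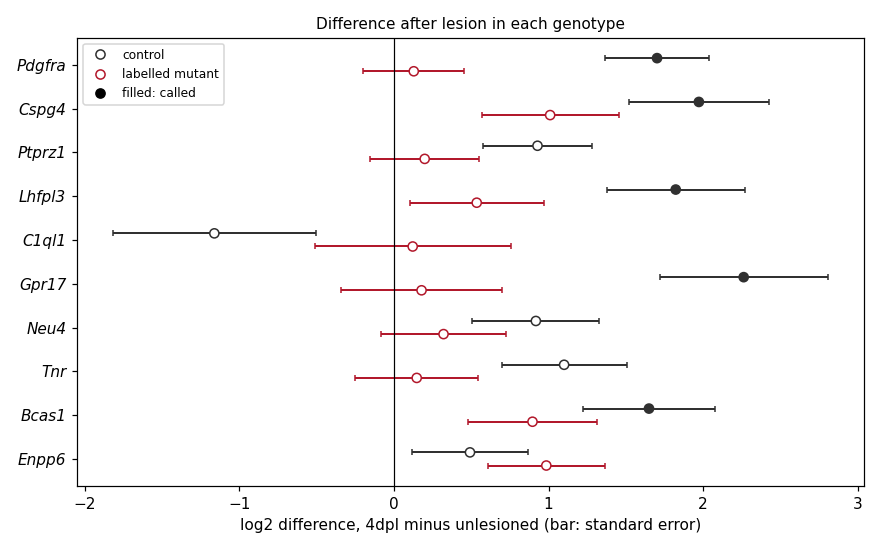
Log2 difference between 4dpl and unlesioned libraries for each gene in control (black) and in mutant (red), with bars for the standard error from the edgeR fit, and filled points for called genes. The 5 filled points are all in control, at 1.65 to 2.26, while every mutant point is open and at or below 1.01.

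Averaged over both genotypes, the same 5 genes, Cspg4 (log2 difference 1.49 ± 0.32 (SE)), Bcas1 (1.27 ± 0.30), Gpr17 (1.22 ± 0.37), Lhfpl3 (1.18 ± 0.31) and Pdgfra (0.92 ± 0.23), were called higher after lesion. This was 5 of 10, against 14.2% of all genes tested called higher and 18.6% called lower, and 31.9% of expressed genes called higher. No gene of the set kept all 6 lesioned libraries above all 6 unlesioned ones (0 of 10, against 7.44% of all genes tested). Enpp6 came next at 0.74 ± 0.27 (SE) and missed the rule by its p-value of 0.0148 (edgeR adjusted p = 0.0398). Mutant unlesioned replicate 1 bears on this count: without it 9 of 10 members, all but C1ql1, were called, and so were 32.3% of all genes. Scaling by total count left 1 member called, Bcas1 (31.1% of all genes called), and a filter of 10 counts in every library left 2, Bcas1 and Cspg4 (20.5%).

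The unlesioned libraries of both genotypes compare the markers on the side of the cord opposite the lesion. Levels before injury were not measured. All 10 genes had a higher mean in mutant than in control unlesioned tissue, where 51.8% of all genes tested had a log2 difference above 0. They were led by Gpr17 at 62.3 ± 55.1 CPM (SD, n = 3) against 12.1 ± 4.60 CPM (SD, n = 3), and 0 of 10 were called by edgeR, as for all genes tested (0.0%). At an unadjusted p-value of 0.05, 4 of 10 members passed, against 5.22% of all genes tested and 9.15% of expressed genes. They were Gpr17 (log2 difference 2.36 ± 0.55 (SE), edgeR adjusted p = 0.693), Pdgfra (1.07 ± 0.33, adjusted p = 0.707), Lhfpl3 (1.13 ± 0.44, adjusted p = 0.837) and Tnr (0.91 ± 0.40, adjusted p = 0.928). The smallest adjusted p-value of any gene in this comparison was 0.693. In DESeq2 Gpr17 was called, at a log2 difference of 2.38, with 0.141% of all genes called.

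The median log2 difference of the 10 was 0.76, against 0.02 over all genes tested. Pdgfra, Gpr17, Tnr, Lhfpl3 and C1ql1 were higher in every mutant library than in any control library, 5 of 10, against 4.09% of all genes tested. The smallest difference was that of Cspg4, at 0.10 ± 0.44 (SE), which was below 0 under limma voom. Mutant unlesioned replicate 1 was the highest of its group in 8 of 10 members, the exceptions being Bcas1 and C1ql1, and in 31.4% of all genes tested. Without it the difference was 1.32 for Gpr17, 0.62 for Pdgfra, 0.42 for Tnr and 0.95 for Lhfpl3. That of Enpp6 fell from 0.51 to 0.04, and that of Cspg4 was -0.15. The median of the 10 was then 0.49, with 9 above 0. Of the 4 genes with an unadjusted p-value under 0.05, only Gpr17 still passed without that library, 1 of 10 against 5.71% of all genes. The microglia and macrophage sum of the same library, 7738 CPM, was also the highest of its group, whose others had 2704 and 4749 CPM. So were its sums of mature oligodendrocyte genes (25672 against 13849 and 18484 CPM) and of other progenitor genes (402 against 305 and 322 CPM). The same held for other committed and newly formed oligodendrocyte genes (1040 against 541 and 669 CPM) and Schwann cell genes (1014 against 368 and 806 CPM). Its astrocyte, neuron, endothelial and pericyte, fibroblast and cycling cell sums were not the highest. The part of these sums in the result was not tested.

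At 4dpl the median log2 difference of the 10 between genotypes was -0.10 (0.05 over all genes tested), with 4 members above 0 and 6 below (53.9% of all genes tested were above 0). Without control 4dpl replicate 3 the median was 0.47, with 8 members above 0. In the fit to all libraries no member was called by edgeR, as was no gene at all (0.0%). There 2 of 10 passed an unadjusted p-value of 0.05, against 6.92% of all genes tested. These were C1ql1, at 5.41 ± 4.55 CPM (SD, n = 3) in mutant and 1.13 ± 0.977 CPM (SD, n = 3) in control, and Enpp6, at 203 ± 101 CPM (SD, n = 3) and 102 ± 12.9 CPM (SD, n = 3). The log2 differences were 2.27 ± 0.67 (SE, edgeR adjusted p = 0.371) and 0.999 ± 0.38 (SE, edgeR adjusted p = 0.538). Both genes were higher in every mutant library than in any control library, 2 of 10, against 7.34% of all genes tested. Mutant 4dpl replicate 3, the highest of its group in 7 of 10 members (33.9% of all genes tested), had 10.7 CPM of C1ql1 and 320 CPM of Enpp6. Without it the log2 difference was 1.31 for C1ql1 and 0.51 for Enpp6, and 0 of 10 members passed an unadjusted p-value of 0.05 in edgeR, against 5.31% of all genes. The summed level of 8 mature oligodendrocyte genes in that library, 63228 CPM, was also the highest of its group, whose others had 23609 and 26565 CPM, and its part in the result was not tested.

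The progenitor genes Cspg4 (73.9 ± 22.0 CPM in control and 40.6 ± 15.2 CPM in mutant, SD, n = 3 each) and Pdgfra (31.8 ± 14.0 and 22.4 ± 2.36 CPM, SD, n = 3 each) had lower means in mutant 4dpl libraries. Their log2 differences of -0.87 ± 0.44 (SE) and -0.51 ± 0.33 (SE) were not called, and their libraries overlapped. Gpr17 (0.28 ± 0.52 (SE)), Bcas1 (-0.27 ± 0.41), Lhfpl3 (-0.15 ± 0.43), Ptprz1 (-0.15 ± 0.35), Tnr (-0.05 ± 0.40) and Neu4 (0.03 ± 0.41) were within 1 standard error of 0. Without control 4dpl replicate 3 the differences of Bcas1, Lhfpl3, Tnr and Ptprz1 turned above 0, Lhfpl3 reaching 0.69. That of Pdgfra was then -0.17 and that of Cspg4 -0.69.

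**Figure D3:**
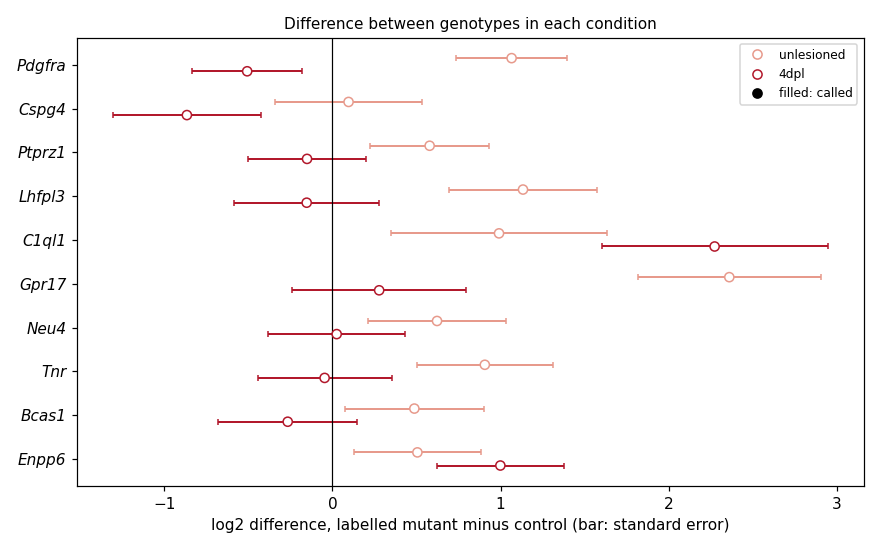
Log2 difference between mutant and control libraries for each gene, unlesioned (light) and at 4dpl (dark), with bars for the standard error from the edgeR fit. All points are open, since no gene was called, and the unlesioned point is to the right of the 4dpl point in every gene except C1ql1 and Enpp6.

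The interaction term, the lesion difference in mutant minus that in control, tests whether the response itself differed between genotypes. It was above 0 in 2 of 10 members, against 54.8% of all genes tested, with a median of -0.85 (0.07 over all genes tested), and 0 of 10 were called by edgeR, as for all genes tested (0.0%). The unadjusted p-value was under 0.05 for Pdgfra (-1.57 ± 0.47 (SE)) and Gpr17 (-2.08 ± 0.74 (SE)), 2 of 10 against 3.81% of all genes tested, and neither passed after adjustment over all genes (the smallest edgeR adjusted p of any gene was 0.9999). The positive terms were those of Enpp6 (0.49 ± 0.53 (SE)) and C1ql1 (1.28 ± 0.91 (SE)). Without mutant unlesioned replicate 1 the term of Pdgfra was -1.13 and that of Gpr17 -1.04, and only Pdgfra had an unadjusted p-value under 0.05 (4.64% of all genes had). The median of the 10 was then -0.59. It was -0.44 without control 4dpl replicate 3 and -1.04 without mutant unlesioned replicate 2. No member was therefore shown to respond differently to lesion in mutant and in control.

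Of 25 other progenitor genes, 2 were called higher in control after lesion, Fabp7, a fatty acid binding protein (log2 difference 1.50 ± 0.33 (SE), edgeR adjusted p = 0.0281), and Nxph1, the secreted neurexophilin (1.46 ± 0.41, adjusted p = 0.0428), and none lower. This count is near the 5.12% of all genes tested, and the median over the 25 was 0.05. In mutant 0 of 25 were called by edgeR and 3 had an unadjusted p-value under 0.05, against 33.8% of all genes tested. Over both genotypes Fabp7 (1.21 ± 0.23) and the sulfatase gene Sulf2 (0.89 ± 0.23) were called higher and Dscam (-0.93 ± 0.28) lower. Nxph1 was at 6.62 ± 1.10 CPM (SD, n = 3) unlesioned and 4.62 ± 1.49 CPM (SD, n = 3) at 4dpl in mutant, beside 2.26 ± 0.736 and 6.23 ± 3.38 CPM (SD, n = 3 each) in control. Of 24 other committed and newly formed oligodendrocyte genes tested, Cnksr3 (1.43 ± 0.33) was called higher and Casr, the calcium-sensing receptor (-3.39, below 1.2 CPM in every library), lower in control, 1 each of 24 against 5.12% and 5.01% of all genes tested, with a median of 0.22. In mutant 0 were called by edgeR (3 at an unadjusted p-value of 0.05).

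Of 28 ligands, receptors, binding partners and close relatives, 2 were called higher in control after lesion: Sdcbp, the scaffold protein syntenin that binds NG2 (log2 difference 1.56 ± 0.42 (SE), edgeR adjusted p = 0.0395), and Lhfpl2, a relative of Lhfpl3 (1.80 ± 0.41, adjusted p = 0.0297), with a median of 0.24. This count too is near the 5.12% of all genes tested. In mutant 0 of 28 were called by edgeR (7 at an unadjusted p-value of 0.05, against 33.8% of all genes tested). Over both genotypes 5 were called higher, near the 14.2% of all genes tested, these with Pdgfc (1.44 ± 0.28), Cysltr1 (1.03 ± 0.22) and Cntn1 (0.75 ± 0.25), and Scn2b (-1.62 ± 0.42) was called lower. Pdgfc encodes a PDGF ligand that acts on PDGFRA, whereas Pdgfa, which encodes the ligand best known for OPCs, was at 0.32 ± 0.27 (SE) and not called (edgeR adjusted p = 0.341). Contactin 1, encoded by Cntn1, binds both PTPRZ1 and tenascin-R, and CYSLTR1 is a leukotriene receptor related to GPR17.

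The members were also read against genes of mature oligodendrocytes. The summed level of 8 mature genes was 14879 to 18720 CPM in control unlesioned, 21289 to 32523 CPM in control 4dpl, 13849 to 25672 CPM in mutant unlesioned and 23609 to 63228 CPM in mutant 4dpl libraries. Mobp was called higher in control and, with Mbp, over both genotypes. On log2 CPM minus the mean of these 8 genes, 9 of 10 members were higher at 4dpl in control (median 0.93), 5 of them without overlap, against 54.7% of expressed genes higher and 15.0% without overlap (median 0.06). In mutant 2 of 10 were higher (median -0.49), 0 without overlap, against 9.08% of expressed genes higher and 0.132% without overlap (median -0.45). Gpr17 had a relative difference of 1.90 in control and -0.43 in mutant, and Pdgfra of 1.33 and -0.70. In unlesioned tissue all 10 members were higher in mutant relative to mature genes (median 0.82), 6 without overlap, against 62.7% of expressed genes higher and 3.75% without overlap (median 0.12). At 4dpl 2 of 10 were higher (median -0.38), both without overlap, against 13.4% of expressed genes higher and 2.15% without overlap (median -0.47). No test was made on these relative levels.

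Marker genes of cells outside the lineage were counted as well. The summed level of 8 microglia and macrophage genes was 2703 to 4974 CPM in control unlesioned and 8431 to 12928 CPM in control 4dpl libraries, and 2704 to 7738 CPM and 7882 to 11567 CPM in mutant, and all 8 were called higher over both genotypes. Of 8 astrocyte genes, Gfap and Gja1 were called higher in control. Over both genotypes Gfap and Aldoc rose. Of 8 neuron genes, Syt1 was called lower over both genotypes, and of 8 endothelial and pericyte genes Abcc9 was. Of 8 genes of cycling cells, Pcna was called higher over both genotypes and Mki67 was not, and 0 were called in either genotype alone by edgeR (0 in control and 1 in mutant at an unadjusted p-value of 0.05). Of all genes tested, 5.12% were called higher in control, and 14.2% were called higher and 18.6% lower over both genotypes. Among expressed genes the shares over both genotypes were 31.9% higher and 1.61% lower. An unadjusted p-value under 0.05 in edgeR was held by 10584 of 31109 genes in control and by 33.8% in mutant. The part of any of these cell types in the members' differences was not tested.

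**Figure D4:**
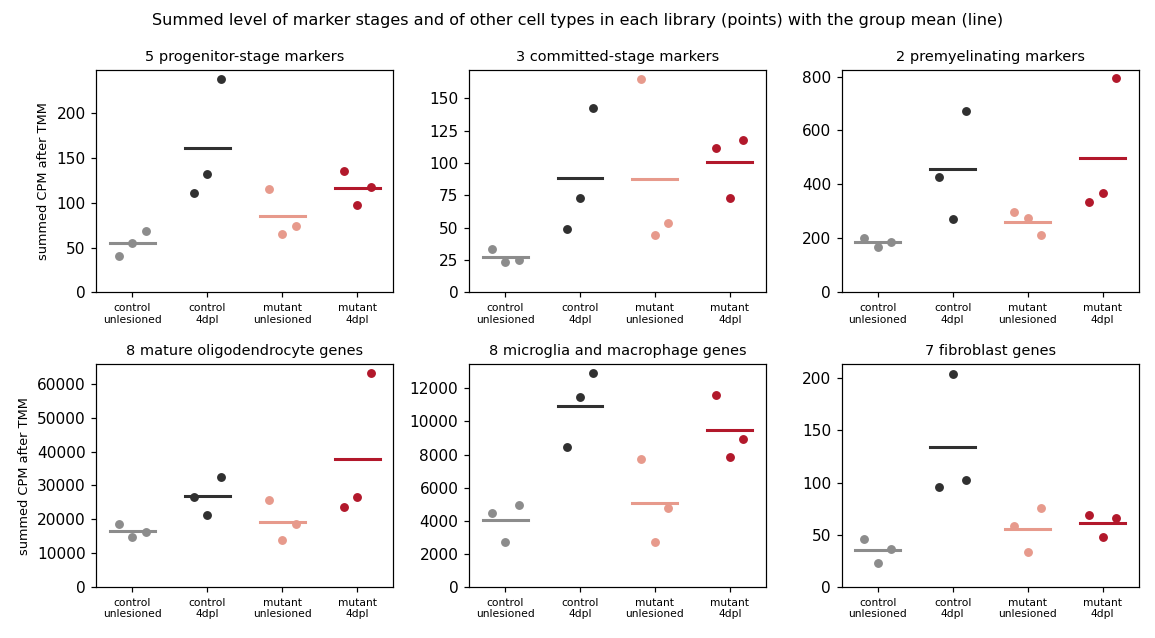
Summed CPM of the members by stage and of 3 other sets of marker genes, with a point for each library and a line at the group mean, on linear axes from 0. The progenitor-stage sum of control libraries goes from 40.8 to 69.0 CPM unlesioned to 111 to 239 CPM at 4dpl, beside 65.6 to 115 and 97.3 to 135 CPM in mutant libraries.

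The genes whose profile over the 12 libraries was nearest to the mean profile of each stage were sought among 13606 genes, with the root mean square difference of centred log2 CPM as the measure. For the progenitor stage they were Gpr37l1 (0.21), Rlbp1 (0.22), Iqcb1 (0.23), Rtn1 (0.24) and Phyhd1 (0.26). Of the members of that stage, Ptprz1 was at 0.25 from the mean profile, Lhfpl3 at 0.31, Pdgfra at 0.33, Cspg4 at 0.81 and C1ql1 at 1.17. For the committed stage they were Slc1a1 (0.25), Kank1 (0.26), Igsf21 (0.28), Cntn1 (0.29) and Susd5 (0.29), and for the premyelinating stage Abat (0.15), Cpe (0.19), Plekhb1 (0.20), Lpar1 (0.20) and Diras1 (0.21). The distance of Bcas1 and of Enpp6 from their own mean was 0.36.

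Shared sequence could touch some counts. Exon bases shared with another annotated gene made up 17.6% of Lhfpl3, 12.6% of Bcas1, 6.5% of Pdgfra, 3.62% of Gpr17 and 3.44% of Tnr, with every partner but Mir7025 on the opposite strand, and the use of strand in counting is not given in the sources used here. The antisense neighbour of Lhfpl3, A930003O13Rik, was at a mean of 1.06 to 1.34 CPM in the 4 groups. Lims2, which overlaps Gpr17 on the opposite strand, was at a mean of 11.1 CPM in control unlesioned and 17.0 CPM in control 4dpl libraries.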

How the data were processed

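RNA was measured by sequencing in 12 libraries of Percoll-enriched mouse spinal cord. The authors used featureCounts with an Ensembl annotation of GRCm38 and deposited the raw, unnormalized counts of exonic reads per gene. The methods name BWA as the aligner, whereas the submitters' processing notes name STAR and mm10. Reads were not realigned. Groups came from the sample labels.

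The test was the quasi-likelihood F test of edgeR 4.0.16 under R 4.3.3. In it filterByExpr kept 31109 genes, TMM factors were between 0.806 and 1.30, and one mean per group was fitted to all 12 libraries (glmQLFit, glmQLFTest). A called gene had a p-value below 0.01 as well as a Benjamini-Hochberg adjusted p-value, taken over all genes tested, below 0.05. Standard errors came from the log2 difference and the F statistic. CPM used TMM library sizes, and RPKM used the exon length in the deposited count tables. Overlap means that the ranges of the libraries of 2 groups overlap. The fit was tested on simulated counts.

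The members, gene lists and tests were chosen with earlier results of these data known. The rule for named genes took all 10 members, Tet1, the called genes of each other list, and the 5 genes nearest to each stage's mean profile. Not every gene the rule names is reported. Alternatives were DESeq2 1.42.0, limma 3.58.1 voom with sample weights, edgeR with legacy set to false, RLE size factors, no low-count filter or a stricter one, fits to the groups compared, replicate blocks and leaving out each library in turn. Scaling by total count was added after the data were seen.

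At 34805086 to 67251544 counts per library, counting error is small for all members but C1ql1, and precision is set by having 3 libraries a group. Promoters were taken from a RefSeq table, in which Gpr17, Bcas1 and C1ql1 were not matched.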

Additional observations from a re-analysis of the deposited data

How the results depend on the processing

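The count of members called after lesion in control, 5, was 2 with total-count scaling, with at least 10 counts in every library, with the groups compared only, and with a block on the study's sample numbers, and 0 to 5 with one library left out. In mutant it was 0, and 0 to 1 with one library left out. Over both genotypes it was 5, then 1 with total-count scaling, 2 with at least 10 counts in every library, and 4 to 9 with one library left out. Enpp6 was also called over both genotypes in limma voom and with no low-count filter. For the genotypes unlesioned the count was 0, and 1 in DESeq2. The counts for the genotypes at 4dpl and for the interaction were 0 under every alternative run. The cause of these shifts was not tested, apart from the shift in scaling itself: total-count scaling moved the median log2 difference of all genes from -0.36 to -0.70 in control and from -0.18 to -0.66 in mutant after lesion, RLE size factors moved it to -0.32 in mutant, and the filter of 10 counts, which tested fewer genes, moved it to -0.05 in control and 0.06 in mutant.

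The direction of the lesion difference in mutant changed for members near 0. With total-count scaling, at least 10 counts in every library and the groups compared only, in that order, it was -0.35, -0.16 and -0.098 for Pdgfra, -0.28, -0.078 and -0.038 for Gpr17, -0.33, -0.14 and -0.077 for Tnr, -0.26, -0.091 and -0.018 for Ptprz1, and -0.35, -0.23 and -0.12 for C1ql1. With total-count scaling it was -0.16 for Neu4. For C1ql1 it was also -0.025 in DESeq2, -0.023 with RLE size factors, -0.27 in limma voom and -0.14 with the label block. With one library left out it ranged from -0.058 to 0.59 for Pdgfra, from -0.15 to 1.24 for Gpr17, from -0.090 to 0.66 for Tnr, from -0.0050 to 0.79 for Neu4 and from -0.81 to 0.56 for C1ql1. Between the genotypes unlesioned, Cspg4 was at -0.021 in limma voom, -0.16 with the block on the study's numbers and -0.29 to 0.62 with one library left out. At 4dpl, Tnr was at 0.14 with the block on the study's numbers. Lhfpl3 was at 0.025 in limma voom, 0.022 with the label block and 0.37 with the block on the study's numbers. Neu4 was at -0.015 in DESeq2, -0.042 in limma voom, -0.015 with RLE size factors, -0.0054 with total-count scaling and -0.068 with no low-count filter. With one library left out, the 4dpl difference ranged from -0.013 to 0.72 for Gpr17, from -0.79 to 0.16 for Bcas1, from -0.36 to 0.44 for Tnr, from -0.32 to 0.51 for Neu4, from -0.48 to 0.69 for Lhfpl3 and from -0.36 to 0.25 for Ptprz1. No difference changed direction after lesion in control, over both genotypes or in the interaction.

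Replicate numbers of the labels are shared by the groups, but the deviations of same-numbered libraries from their group means correlated across genes at 0.05 to 0.19 in control and at -0.07 to 0.07 in mutant, which does not show the numbers to pair the libraries, and whether same-numbered libraries share a mouse is not known. A replicate block on the label numbers left the count at 5 after lesion in control and 0 in mutant. It gave 6 over both genotypes, with Enpp6 added.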
